A study of Danio rerio with 6 samples.

Results

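The regions described here were open in every library of the study: each held a peak of all 3 control and all 3 wt1b-overexpressing libraries. Peaks of the 6 deposited lists that overlapped by at least 1 bp were merged along chromosomes 1 to 25, which gave 71293 regions. Of these, 1287 held a peak of all 6 libraries, and 1183 of them, 1.66% of all regions, held no peak of 1500 bp or more. These 1183 are called the shared regions. Presence in all lists and the width limit chose them, so neither is a result.

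The assay was ATAC-seq, which marks open chromatin: its transposase, Tn5, places sequencing adapters where DNA is not packed away in nucleosomes. GFP-positive cells, labelled as cardiomyocytes, were sorted from 5-day-old zebrafish larvae (5 dpf, strain AB). Larvae of both groups carried the driver Tg(myl7:Gal4)cbg2Tg, in which the promoter of the heart muscle myosin light chain gene myl7 makes the yeast activator Gal4. The UAS transgene of the controls was Tg(eGFP:5xUAS:RFP; gcryst:cerulean)cn15. That of the experimental group was Tg(eGFP:5xUAS:wt1b; gcryst:cerulean)cn15. Gal4 binds UAS, so the groups differed in whether RFP or wt1b was switched on beside eGFP. The labels do not say how many larvae were pooled for a library, and a p-value over libraries measures only the spread between these libraries. The label cardiomyocytes could not be compared with marker genes, because no gene annotation in the coordinates of the files was used here.

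Wt1 is a zinc-finger transcription factor of the epicardium, the outer layer of the heart, and wt1b is one of its zebrafish genes. Heart muscle cells normally hold little of it, and the study forced its expression in them. Stretches of DNA that are open whatever the condition commonly include promoters of widely used genes and sites bound by the insulator protein CTCF. Which of the shared regions are promoters was not analysed here, and no sequence of them is given, since no genome in these coordinates was used.

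The lists differed widely in length. Control replicates 1, 2 and 3 had 29887, 29561 and 23334 peaks, and wt1b replicates 1, 2 and 3 had 9310, 4122 and 4091. Every control list exceeded every wt1b list in length, and how many reads lay behind each is unknown. The shared regions held 1380, 1417 and 1335 peaks of control replicates 1, 2 and 3, and 1373, 1342 and 1305 peaks of wt1b replicates 1, 2 and 3. They therefore took up 4.62%, 4.79% and 5.72% of the control lists and 14.7%, 32.6% and 31.9% of the wt1b lists. These shares follow from list length, as every library contributes at least 1 peak to each of the 1183 regions. In the 2 shortest lists, over 30% of the peaks thus lay in places that were also open in every other library.

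The lists that most often kept a region out of the set were those of wt1b replicates 2 and 3 and control replicate 1. Under the same width limit, 1061 regions held peaks of 5 of the 6 libraries. The absent library was wt1b replicate 2 in 398 of them, wt1b replicate 3 in 341 and control replicate 1 in 198. It was control replicate 3 in 48, wt1b replicate 1 in 43 and control replicate 2 in 33. Control replicate 1 had the longest list and yet was the absent library more often than the other 2 control libraries together. Without wt1b replicate 2, and with a peak of the 5 remaining libraries required, the number of shared regions was 1580, and without control replicate 1 it was 1391.

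The span of a shared region from the first to the last base covered by any library had a median of 920 bp and ran from 220 to 2296 bp, and it can pass the limit for single peaks because overlapping peaks are joined. The median was 797 bp in regions of 5 libraries and 400 bp in regions of 1 library, both taken without the width limit. Span joins the peaks of all libraries in a region, so it grows with their number and this order is no result. The median stretch covered by all 6 libraries was 299 bp, with quartiles of 224 and 403.5 bp. Altogether the shared regions covered 1143 kb in at least 1 library, and 33.2% of these base pairs were covered by all 6. In 46 of the 1183 regions no base was covered by all 6 libraries, since overlapping peaks form a chain whose ends need not meet.

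Each region was aligned on the centre of the stretch covered by the most libraries. Since the regions were chosen for overlapping peaks, a common centre is set by the choice and the alignment, and only the extent of coverage around it is described. In control replicates 1, 2 and 3, peaks covered at least 50% of the regions over a stretch of 486, 588 and 608 bp around this centre. In wt1b replicates 1, 2 and 3 the stretch was 559, 426 and 463 bp. The order of the libraries was the same on both sides of the centre, with wt1b replicates 2 and 3 and control replicate 1 the narrowest. The centre of a region, taken as the midpoint of a library's peaks in it, varied between the 6 libraries with a median SD of 84.0 bp, which the rule of overlap keeps small. The mean centre of the wt1b libraries lay under 100 bp from that of the control libraries in 932 regions (78.8%), and the median signed shift along the chromosome was 1.17 bp.

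**Figure D1:**
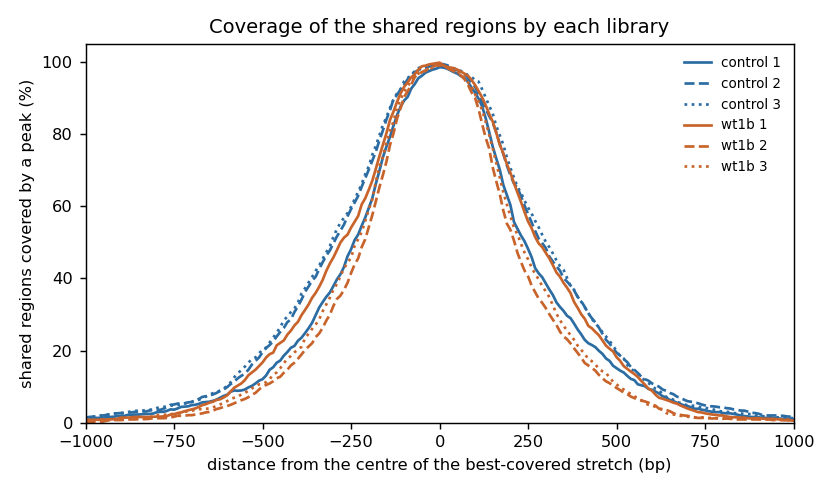
Percent of the 1183 shared regions covered by a peak of each library (y axis) against the distance in bp from the centre of the stretch covered by the most libraries (x axis); blue lines are control and orange lines wt1b libraries. The common centre is set by the alignment and by the choice of regions; the stretch over which at least 50% of the regions were covered ran from 426 bp in wt1b replicate 2 to 608 bp in control replicate 3.

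Peak width in the shared regions differed between libraries, and the groups overlapped. The median width of single peaks was 464.5, 538 and 596 bp in control replicates 1, 2 and 3. It was 530, 429 and 471 bp in wt1b replicates 1, 2 and 3. Control replicate 1 lay below wt1b replicates 1 and 3, and wt1b replicate 1 lay above control replicate 1 and close to control replicate 2. Control libraries averaged 533 ± 65.9 bp (SD, n = 3). Wt1b libraries averaged 477 ± 50.7 bp (SD, n = 3), which is a difference of -56.2 bp. By an exact permutation test, two-sided, p was 0.3, where 3 libraries against 3 allow no p under 0.1. The difference ranged from -23.3 bp without control replicate 3 to -89 bp without control replicate 1, was -28.7 bp without wt1b replicate 2 and -85.3 bp without wt1b replicate 1, and was -90.5 bp in lists of equal size. Those lists were shortened by score and, among equal scores, by width. The shortened control lists held only peaks of the highest score, so the cut kept their wide peaks. The -90.5 bp is therefore no independent check of the width difference. Peaks outside the shared regions did not show the same order: their median widths were 411, 364 and 457 bp in the control and 409, 412 and 437.5 bp in the wt1b libraries.

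Counted per region, the same libraries were wide and narrow. The median number of base pairs covered per region was 536, 640 and 648 in control replicates 1, 2 and 3 and 609, 489 and 521 in wt1b replicates 1, 2 and 3. Control replicate 3 was the widest library in 320 of the 1183 regions and control replicate 2 in 308. Wt1b replicate 2 was the narrowest in 351, wt1b replicate 3 in 289 and control replicate 1 in 255. The widest library of a region covered a median of 2.17 times the base pairs of the narrowest, and in 10% of the regions at least 3.87 times.

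Scores were used to rank peaks within their own list. The score is a whole number the authors' caller gave each peak, limited to 1000, so that peaks at the limit cannot be told apart by it. Of the peaks in shared regions, 72.0%, 90.2% and 82.8% were at the limit in control replicates 1, 2 and 3. In wt1b replicates 1, 2 and 3 the shares were 84.8%, 60.7% and 60.5%. Wt1b replicate 1 was among the control libraries, and the other 2 wt1b libraries were below all of them. Control libraries averaged 81.7% ± 9.13 (SD, n = 3). Wt1b libraries averaged 68.7% ± 14.0 (SD, n = 3), a difference of -13.0 percentage points (exact two-sided permutation p = 0.3, smallest possible 0.1). Without wt1b replicate 1 the difference was -21.4 percentage points. In lists of equal size it was -18.7 percentage points, with all 3 wt1b libraries below all 3 control libraries (exact two-sided permutation p = 0.1). There the share was 100% in every control library, because the shortened control lists held only peaks at the limit, and 99.5%, 71.9% and 72.3% in wt1b replicates 1, 2 and 3. Of all peaks in these shortened wt1b lists, 97.2%, 36.3% and 35.4% were at the limit. With every control list at 100%, no wt1b share could lie above, so this separation and its p-value tell nothing about the shared regions. In bulk cells, fewer cells with an open site and a site less open in each cell cannot be told apart.

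Peaks in the shared regions were strong for their list. Outside them, the share at the limit was 18.0%, 32.6% and 20.9% for control replicates 1, 2 and 3, and 35.4%, 24.1% and 23.6% for wt1b replicates 1, 2 and 3. The median rank by score, wider peaks first among ties, fell in the top 7.72%, 7.26% and 7.33% of the control lists and the top 16.0%, 25.8% and 25.1% of the wt1b lists. These ranks come from lists of different lengths and show no change between groups. In the weaker 50% of the list lay 7.90%, 5.29% and 6.07% of the control peaks of the shared regions, and 11.0%, 24.4% and 23.9% of the wt1b peaks. A peak in a region open in all 6 libraries could thus still be weak for its list. These shares count single peaks, and a region can hold more than 1 peak of a library.

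Strength differed among the shared regions as well. In 425 of the 1183 (35.9%) the best peak of every library was at the limit, in 294 that of 5 libraries, and in 4 that of none. All 3 control libraries were at the limit in 782 regions and all 3 wt1b libraries in 509. In 21 regions all 3 control libraries and no wt1b library were at the limit, and in 2 regions the reverse held. The best peak was at the limit in 75.3%, 93.8% and 85.5% of the shared regions in control replicates 1, 2 and 3. In wt1b replicates 1, 2 and 3 these shares were 87.5%, 60.9% and 60.7%. The counts by group follow in part from these shares of whole libraries. They were not tested and show no change at single regions.

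**Figure D2:**
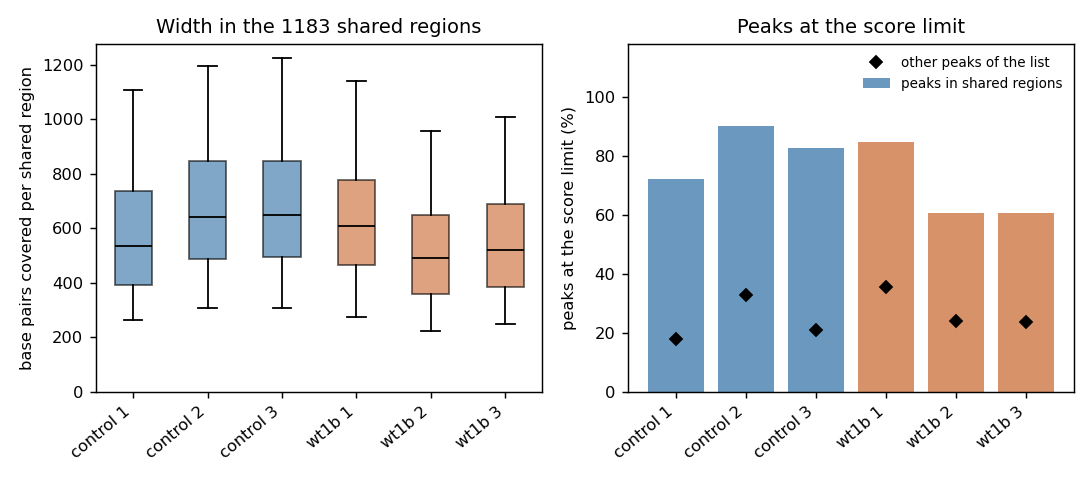
Left, base pairs covered per shared region in each library (y axis, bp): boxes give the quartiles with the median as a line, and whiskers the central 90% of the 1183 regions. Right, percent of a library's peaks at the score limit of 1000, as bars for peaks in shared regions and diamonds for its other peaks; wt1b replicate 1 (84.8%) lies among the control libraries (72.0% to 90.2%), and wt1b replicates 2 and 3 lie below them.

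Depending on the library, between 9.81% and 18.9% of the shared regions were split into more than 1 peak of that library. The share was 15.8%, 18.9% and 12.0% in control replicates 1, 2 and 3 and 14.9%, 12.8% and 9.81% in wt1b replicates 1, 2 and 3, with overlapping groups. In 672 regions (56.8%) no library was split, and in 6 all of them were. The gap between neighbouring peaks of a list inside a shared region had a median of 132 bp and 75% were at most 182 bp. No gap in any list was under 101 bp, so a break shorter than that could not be seen. Between 4.12% and 8.35% of a library's peaks in shared regions were narrower than 200 bp.

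In each of the 6 lists, the share of peaks at the score limit was higher with every further library that had a peak in the region. In regions of 1 library, the median peak width of the 6 lists ranged from 352 to 461.5 bp and the share at the limit from 3.39% to 21.4%. In regions of 3 libraries the ranges were 385 to 461 bp and 19.1% to 57.8%. In regions of 5 libraries they were 398 to 511 bp and 35.8% to 80.4%, against 429 to 596 bp and 60.5% to 90.2% in the shared regions. Width did not rise step by step within every list. In wt1b replicate 2 the median was 440.5 bp in regions of 1 library, 398 bp in regions of 5 and 429 bp in the shared regions. Every other list had a wider median in the shared regions than in regions of 1 library, in wt1b replicate 3 only 471 against 461.5 bp. The gradient in score is a description, since a strong peak is called more easily in every library.

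The strongest shared regions were chosen by the mean rank of score times width over the 6 libraries. Positions are those of the files, whose genome build the sources used here do not state outright; the submitters' processing notes list GRCz11 and danRer11. The first lay at chr11:15112607-15114498. It covered 1364, 1637 and 1432 bp in control replicates 1, 2 and 3 and 1594, 1005 and 1654 bp in wt1b replicates 1, 2 and 3. The values of the groups overlapped, and the lowest was in wt1b replicate 2. The second, at chr3:55358518-55359962, covered 1435, 1441 and 1287 bp in the control and 1293, 1426 and 1243 bp in the wt1b libraries. The third, at chr15:7289722-7291177, covered 1238, 1360 and 1272 bp and 1432, 1309 and 1201 bp. In both of these, each library called 1 peak at the score limit, and the groups overlapped.

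The fourth had the most even widths of these 4. It lay at chr2:19429107-19430384 and covered 1270, 1239 and 1191 bp in the control and 1253, 1253 and 1250 bp in the wt1b libraries. The other 6 of the 10 strongest were at chr7:51248388-51250085, chr12:22559308-22560915, chr21:26482084-26483928, chr2:19466200-19467875, chr22:35088307-35090090 and chr17:47051517-47052833. Their 36 values of base pairs covered ran from 837 to 1543. The mean rank of these 10 among the 1183 ran from 12.2 to 50.7, where the best possible is 1.

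Ranked by score times width, the strongest peaks of all were often in the broad regions that the width limit kept out. The score cannot pass 1000, so the top of this ranking goes largely by width. That broad regions stand high in it follows from the ranking and is no result. Of the 100 strongest peaks by score times width, 22, 19 and 30 in control replicates 1, 2 and 3 and 32, 42 and 43 in wt1b replicates 1, 2 and 3 lay in shared regions. The 104 regions of all 6 libraries with a peak of 1500 bp or more held 51% to 64% of them. Of the 500 strongest, 40.2%, 44.6% and 44.2% in the control and 52.2%, 60.6% and 62.0% in the wt1b lists were in shared regions. These shares cannot be compared between groups, because the 2 shortest lists were themselves wt1b lists and limited which regions could be shared.

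The strongest 119 of the shared regions covered a median of 923, 1014 and 1086 bp in the control and 1006, 833 and 884 bp in the wt1b libraries, and 562 bp in all 6 at the same bases. The weakest 119 covered 317, 353 and 367 bp and 344, 292 and 312 bp, with 210 bp in common. Strength here is the rank of score times width, so the contrast between these sets follows from the ranking. In both sets wt1b replicate 2 was the narrowest and control replicate 3 the widest library.

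The width limit cut through a continuous range. Just inside it were the region at chr7:51248388-51250085, with a widest peak of 1497 bp, one at chr24:12405169-12407004, with 1487 bp, and one at chr12:15565895-15567703, with 1484 bp. Just outside were a region at chr19:2546047-2547735, with 1500 bp, one at chr9:23825231-23826773, with 1516 bp, and one at chr4:18662124-18663884, with 1517 bp. Each of these excluded regions owed its exclusion to 1 library. The region on chromosome 9 covered 1516 bp in control replicate 1 and 319 to 689 bp in the other 5. On chromosomes 19 and 4 the library was wt1b replicate 1, with 1500 and 1517 bp. The other 5 covered 663 to 1312 bp on chromosome 19 and 679 to 1313 bp on chromosome 4.

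Whether wt1b changed the width of single shared regions was tested with limma on log2 base pairs covered, after each library was centred on its median. All 1287 regions with a peak in all 6 libraries entered the fit, and p-values were adjusted over them. No shared region passed an adjusted p of 0.05, against 0% of all regions tested. The smallest adjusted p in the fit was 0.227, and that of any shared region was 0.296. At an unadjusted p under 0.05 there were 56 shared regions (4.73%), 22 wider and 34 narrower in wt1b, against 5.05% of all regions tested. The centred widths of the groups did not overlap in 127 shared regions (10.7%), 73 wider and 54 narrower in wt1b, against 10.5% of all regions tested. The shared regions were 1183 of the 1287 tested, so these shares had to lie close together and nothing is read from them.

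Without a trend in limma, no shared region passed either, and 58 had an unadjusted p under 0.05. The median log2 difference of the shared regions was 0.014, with quartiles of -0.26 and 0.22, and 616 were wider and 567 narrower in wt1b. Centring removes a shift common to all regions: without it the median log2 difference over all regions tested was -0.16, so the differences above are relative to that shift. The 95% interval of a region's difference had a median half-width of 0.73 on the log2 scale, a 1.66-fold change, so smaller changes of single regions could not be told from none. That interval is not adjusted for the number of regions, and larger changes could also fail the adjusted threshold. Log2 differences of -1.61 at chr25:17313102-17314644 and 1.58 at chr15:21445195-21446788 had a limma adjusted p of 0.795.

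**Figure D3:**
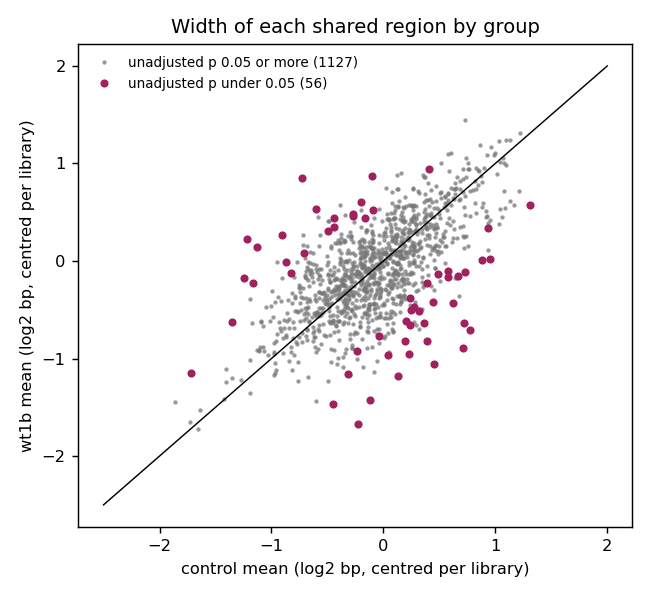
Mean log2 base pairs covered per shared region, centred per library, in 3 control (x axis) and 3 wt1b libraries (y axis); each point is 1 of 1183 regions, and the line marks equal values. The 56 regions with an unadjusted limma p under 0.05 are coloured; none passed an adjusted p of 0.05.

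The regions with the smallest p-values are given as values. The smallest among the shared regions belonged to chr16:48713646-48714911, which covered 1092, 1070 and 1079 bp in control replicates 1, 2 and 3 and 491, 306 and 265 bp in wt1b replicates 1, 2 and 3. The log2 difference was -1.48 with an SE of 0.28 (limma adjusted p = 0.296). The control values lay close together and every wt1b value was under 50% of each of them. Next was chr7:25920508-25921729, with 1108, 767 and 762 bp in the control and 308, 243 and 261 bp in the wt1b libraries, a log2 difference of -1.51 with an SE of 0.31 (limma adjusted p = 0.378). At chr25:17313102-17314644 the values were 1032, 864 and 1238 bp and 367, 444 and 166 bp.

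In each of these 3 regions the groups did not overlap. The other 2 regions narrower in wt1b were at chr17:45104288-45105162 and chr6:269378-270362, and their log2 differences were -1.18 and -1.45. Those 2 and the region on chromosome 25 had a limma adjusted p of 0.795.

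In the other direction, the region at chr2:11911760-11912522 covered 220, 236 and 462 bp in the control and 620, 600 and 627 bp in the wt1b libraries. Its log2 difference was 1.27 with an SE of 0.33 (limma adjusted p = 0.795). The wt1b values were nearly equal, and control replicate 3 was the nearest to them. The region at chr21:45836586-45837290 covered 388, 135 and 378 bp in the control and 641, 641 and 670 bp in the wt1b libraries. The other 3 were at chr15:21445195-21446788, chr2:59530-60924 and chr21:38618389-38619404. All 5 had a limma adjusted p of 0.795 and log2 differences from 1.13 to 1.58. On chromosome 15 wt1b replicate 3 (628 bp) lay below control replicate 3 (671 bp) in base pairs covered, and above it after centring. The smallest limma adjusted p in the fit, 0.227, belonged to a broad region and not to a shared one. It fell to 0.0747 over all regions tested without control replicate 3 and was higher than 0.227 without any other library. Without control replicate 3, the lowest limma adjusted p among the named shared regions was 0.436.

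The position of peak edges was compared by the Jaccard index inside the shared regions, the base pairs covered by both libraries of a pair divided by those covered by either. The 3 control pairs had indices of 0.590, 0.599 and 0.655, and the 3 wt1b pairs had 0.628, 0.635 and 0.640. The 9 pairs across groups ran from 0.587 to 0.662, which encloses all pairs within groups. The highest index of all 15 pairs joined control replicate 2 with wt1b replicate 1 (0.662), and the next joined control replicate 3 with wt1b replicate 1 (0.660). The mean was 0.614 within control, 0.635 within wt1b and 0.616 between groups. The mean within groups exceeded that between by 0.0085 (exact one-sided permutation p = 0.2, smallest possible 0.1). Without wt1b replicate 2 the difference was -0.0045 and without wt1b replicate 3 it was -0.0017.

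Control replicate 1 again stood apart. Its mean index with the other 5 libraries was 0.594, against 0.612 to 0.640 for the others, and wt1b replicate 1 had the highest. Over the 1183 regions, Spearman's rho of centred widths was 0.310 to 0.391 for pairs with control replicate 1 and 0.379 to 0.498 for all other pairs. These correlations are across regions of the same 2 lists and carry no test. Pairs within groups had a rho of 0.343 to 0.478 and pairs between groups of 0.310 to 0.498.

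**Figure D4:**
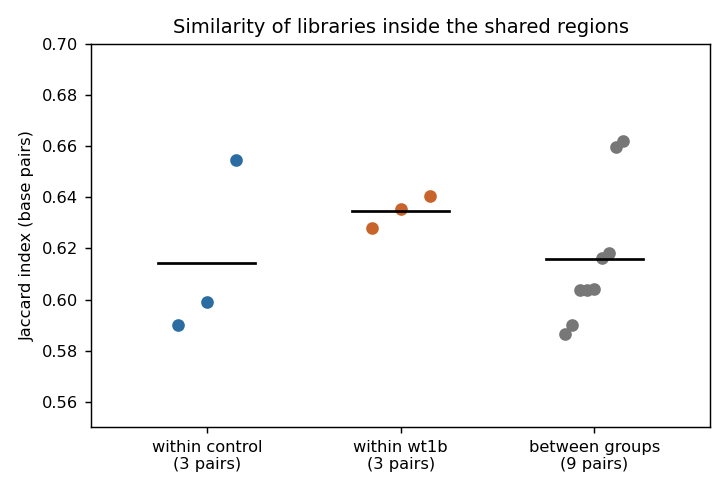
Jaccard index of peak coverage inside the shared regions (y axis, base pairs shared over base pairs covered by either; axis from 0.55) for pairs within control, within wt1b and between groups; points are pairs of libraries and lines are means. The pairs between groups, from 0.587 to 0.662, enclose those within groups.

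The shared regions lay on all 25 chromosomes. Their number ran from 25 on chromosome 22 to 80 on chromosome 3. As a share of all regions of a chromosome it ran from 1.26% on chromosome 18 to 2.42% on chromosome 3, against 1.66% overall. The exact 95% interval of chromosome 3 (1.93% to 3.01%) lay above the overall share, and those of the other 24 chromosomes included it; no test was run over the 25 intervals. On chromosome 3, peaks in shared regions made up 6.93%, 6.44% and 8.22% of the 3 control lists, and 18.2%, 37.5% and 39.4% of the 3 wt1b lists, in the order of their replicate numbers. These shares were above that of the whole list in 6 of 6 libraries, which hold the same regions. The same held on chromosomes 6, 10, 21 and 24, so it does not set chromosome 3 apart. In wt1b replicate 1 the share on chromosome 24 was 20.3%, above that on chromosome 3.

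Along chromosome 4 the shared regions thinned out. Up to position 30 Mb there were 29 among 1767 regions (1.64%, 95% interval 1.102% to 2.35%). Beyond it there were 3 among 717 (0.418%, 0.0864% to 1.22%), from 51990505 to 51992214, from 63365092 to 63365374 and from 75121197 to 75121798. The point of division was chosen after the positions were seen. The width limit also kept out broad regions of all 6 libraries on chromosome 4. Before 30 Mb these were 1 at 10 to 20 Mb and 3 at 20 to 30 Mb. Beyond it they were 1 at 30 to 40 Mb, 1 at 40 to 50 Mb and 2 at 70 to 80 Mb. The shares above leave these out, so they do not describe all regions open in every library. Within 1 Mb of the ends of the chromosomes, taken as position 1 and the last peak of any list, lay 99 shared regions (8.37%, 6.85% to 10.1%), and 6.17% of all regions.

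Most shared regions stood alone, and some were grouped. The distance to the nearest other shared region had a median of 216 kb, with quartiles of 45.4 and 705 kb, and 193 regions (16.3%) were over 1 Mb from the next. Another shared region lay within 10 kb of 136 (11.5%, exact 95% interval 9.73% to 13.5%). For regions called in fewer libraries the nearest shared region was farther off: 8.82% (7.20% to 10.7%) of the regions of 5 libraries had one within 10 kb, 6.25% (5.32% to 7.28%) of those of 3 and 2.39% (2.27% to 2.52%) of those of 1. The 104 broad regions of all 6 libraries had one within 10 kb in 34.6% of cases (25.6% to 44.6%). Neighbouring regions are not independent, and the intervals cover counting error only; broad peaks can also reach closer to a neighbour, the median span of the broad regions being 2095 bp.

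Regions of any kind were also somewhat denser around the shared ones. Within 10 kb, a shared region had 2.19 other regions on average, a region of 5 libraries 1.95 and a region of 1 library 1.40. The broad regions of all 6 libraries had more, 4.18 on average. No other region lay within 10 kb of 241 shared regions (20.4%), and of 29.1% of the regions of 1 library. That share was 21.4% for regions of 5 libraries and 20.9% for regions of 4, close to the shared regions, and 9.62% for the broad regions. Denser surroundings are thus not particular to the shared regions.

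**Figure D5:**
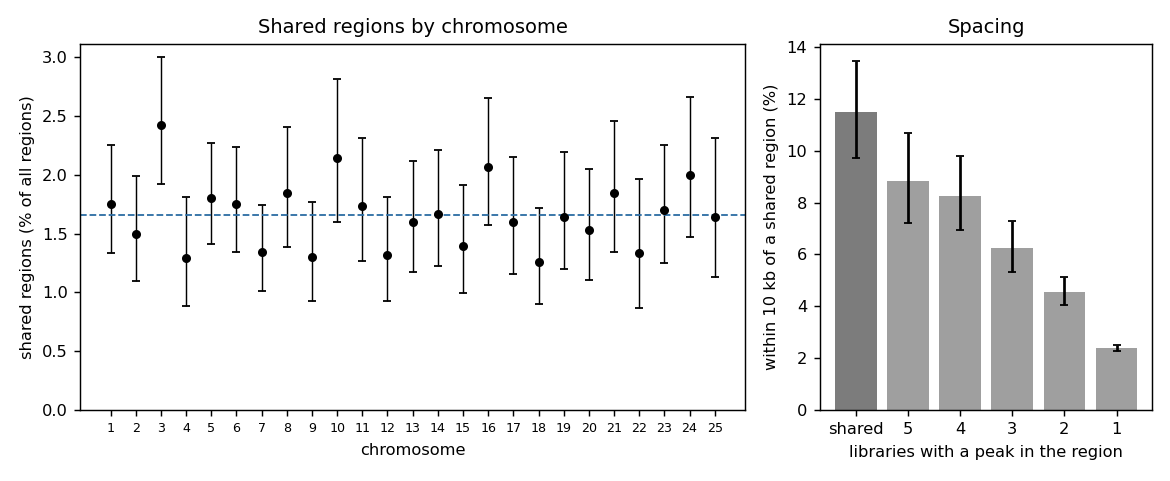
Left, shared regions as percent of all regions of each chromosome (y axis) with exact 95% intervals; the dashed line is the overall share of 1.66%, and chromosome 3 lies above it with its whole interval. Right, percent of regions with a shared region within 10 kb, by the number of libraries with a peak in the region, with exact 95% intervals; it falls from 11.5% of the shared regions to 2.39% of the regions of 1 library.

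Runs of shared regions no more than 10 kb apart held 136 of them, in 43 runs of 2 and 11 longer ones. The longest was at chr14:20090102-20112102, where 8 shared and 2 broad regions lay in 22.0 kb among 14 regions in all. Its 8 shared regions covered 545 to 1139, 426 to 1291 and 372 to 1232 bp in control replicates 1, 2 and 3 and 569 to 1293, 558 to 1028 and 313 to 787 bp in wt1b replicates 1, 2 and 3. In 5 of the 8 every library had a peak at the score limit, and the values of the groups covered much the same range. Chromosome 10 held 7 shared regions from 16784706 to 16803310, in 18.6 kb with 9 regions in all, and a further run of 4 from 16825396 to 16839994. These 7 regions covered 258 to 1233, 337 to 1247 and 245 to 1193 bp in control replicates 1, 2 and 3. In wt1b replicates 1, 2 and 3 they covered 218 to 1279, 231 to 1206 and 209 to 1042 bp. In base pairs covered, the groups did not overlap in the region from 16784706 to 16786226. It had 1063, 1153 and 940 bp in the control and 803, 675 and 860 bp in the wt1b libraries. After each library was centred on its median, the groups overlapped there, with wt1b replicate 3 above control replicate 3. In base pairs covered, the groups also did not overlap, with wt1b lower, in the regions starting at 16788613, 16793755, 16797702 and 16800366. Without centring, these values hold the shift common to all regions, and they were not tested as a run. The groups overlapped in base pairs covered in the regions starting at 16798455 and 16801884. The region from 16798455 to 16799777 had 1177, 1114 and 1106 bp in the control and 1279, 1206 and 791 bp in the wt1b libraries.

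Runs of 5 lay at chr16:25927267-25943745 and at chr2:19462042-19482048. The run on chromosome 2 held the eighth of the 10 strongest shared regions, and the fourth of them lay on the same chromosome ahead of it. The strongest shared region of all was part of a run of 4 at chr11:15110137-15115714. Regions in runs covered more base pairs than the others in all 6 libraries: medians of 666, 677.5 and 659.5 bp against 526, 638 and 647 bp in the control, and 618, 528 and 562 bp against 607, 486 and 520 bp in the wt1b libraries. The difference was largest in control replicate 1 and small in control replicate 3 and wt1b replicate 1, and it was not tested.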

How the data were processed

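The 6 ATAC-seq peak lists, 3 control and 3 wt1b, were used as deposited, 1 per library. Each had 6 columns without a header. Positions are counted from 1 here. The score of each peak was given by the authors' caller in the deposited lists, as a whole number from 187 to 1000. The submitters' processing notes name Genrich, Bowtie2, GRCz11 and danRer11, with no role or version; other settings are not given in the sources used here, and read depth is unknown. Analyses used Python 3.11.15, numpy 2.4.6, pandas 2.3.3, scipy 1.17.1, R 4.3.3 and limma 3.58.1, with trend and Benjamini-Hochberg adjustment. Region counts were checked with bedtools 2.31.1, with equal results, and the limma script was tested on simulated data. At most 4 peaks of any 2 lists had identical ends. The members, lists and tests were chosen with earlier results of these data known. Named regions are the 10 strongest, the 5 with the smallest limma p in each direction, and the 3 nearest the width limit on each side. Intervals are exact Clopper-Pearson 95% intervals, for counting error only. Planned results that needed a genome or annotation of the build (transcription starts, gene groups, base composition, motifs) were not run.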

Additional observations from a re-analysis of the deposited data

How the results depend on the processing

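The number of shared regions was 670 in the stronger 50% of each list and 597 in lists of equal size, against 1183, and 1232 to 1580 when a library was left out. It was 861 when peaks were joined only if their overlap spanned at least 50% of both. With every peak under 1000 bp it was 898. The share with another within 10 kb was 16.2% with no width limit, against 11.5%, and 12.5% to 13.4% when a library was left out. Over the same omissions the median width difference ran from -89 to -23.3 bp, the difference at the score limit from -21.4 to -8.81 percentage points, and the similarity within minus between groups from -0.0045 to 0.0150, reversed without wt1b replicate 2 (-0.0045) or wt1b replicate 3 (-0.0017). No shared region passed the limma threshold under any of the 12 alternatives, where 52 to 76 had an unadjusted p under 0.05; score times width was added after seeing the data. The 10 regions named from the main fit kept their direction under each of the 12 alternatives, 120 values in all. They were picked for their small p in the same libraries, so this is no independent support. With the replicate number as a block, the differences were again -56.2 bp and -13.0 percentage points (exact sign-flip p = 0.5 for both, smallest possible 0.25), and 0 regions passed in limma. Replicate numbers showed no sign of pairing: correlations of same-numbered deviations of width were -0.0089, -0.11 and -0.019. The alternatives for transcription starts were not run. Unknown depth limits every value, and 3 libraries against 3 cannot give a p under 0.1 for a single value.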

Other observations

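Unplaced scaffolds, which the shared regions leave out, held 27 regions with a peak of all 6 libraries under the same width limit. These were 2.43% of the 1113 scaffold regions, against 1.66% on the chromosomes. The count is small, no interval was taken for this share, and the difference was not tested.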
